A study of Mus musculus with 23 samples.

Results

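The internal parts of 4 mouse endogenous retroviruses of the murine leukemia virus (MuLV) type were followed in RNA from whole spinal cord. These are MuLV-int, MMERGLN-int, RLTR6-int and MERV1_I-int, 4 of the 1135 repeat subfamilies in the table and 4 of its 144 ERV1 subfamilies. They were taken by name, and the names were picked with the PS19 against control results at 9 months in view. For that reason the 9-month difference between genotypes is given below as a description without a test. The file assigns all 4 to family ERV1 and class LTR. All 144 ERV1 subfamilies share that family, so it does not test the MuLV part of the name given to the group.

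PS19 mice carry a transgene for mutant human tau driven by the mouse prion protein promoter and are a model of tauopathy. The animals were heterozygous PS19 mice and their wild-type littermates, and the labels give no sex or strain background. Poly(A)-selected RNA was sequenced from 5 control and 5 PS19 animals at 4 months and from 6 control and 7 PS19 animals at 9 months. Of 9 marker genes of spinal cord cells looked for, 0 were in the table, which lists repeats, so the tissue could not be checked. The labels do not say whether samples were prepared apart, so p-values measure the spread between these samples, which may be partly technical.

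An endogenous retrovirus is a viral genome fixed in the germ line. Its intact form is an internal part, which holds the gag, pol and env genes, between a pair of long terminal repeats (LTRs) that carry the promoter. ERV1 elements of mouse are related to gammaretroviruses, whose best known member is murine leukemia virus. MuLV-type proviruses differ in number and position between inbred mouse strains, and some can still be transcribed. MMERGLN is the GLN family, named for the glutamine transfer RNA that primes its reverse transcription. A read count per subfamily adds up all copies, so it cannot tell 1 strongly transcribed copy from many weak ones.

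Values are normalized reads, meaning reads of a subfamily after division by the size factor of that sample. Lengths of the subfamilies were not at hand, so levels are compared between samples and not between subfamilies. Whole reads could be recovered from the values. Repeat reads per sample ranged from 338090 to 2168280. The members were covered by 90 to 645 reads per sample for MuLV-int, 84 to 1337 for MMERGLN-int, 123 to 1764 for RLTR6-int and 42 to 754 for MERV1_I-int. Counting error alone is therefore 15.4% at the lowest MERV1_I-int sample. The 4-month samples formed a set with high and a set with lower total repeat signal, 1816500 ± 358060 normalized reads (SD, n = 6) against 601223 ± 140977 (SD, n = 4). Replicates 1 to 3 of each genotype form the higher set and replicates 4 and 5 the other. The 9-month samples had a lower mean total, 427359 ± 45463 (SD, n = 13), and their highest sample, at 539759, lay above 2 of the 4 animals of the other set.

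The first comparison was between genotypes at 9 months. All 4 internal parts had a higher mean in PS19, and in MMERGLN-int and MERV1_I-int the genotypes did not overlap. Over all 920 tested subfamilies, 0.978% had each PS19 animal above each control. In bulk tissue, a change in the number of cells of a type and a change of RNA per cell cannot be told apart. Total repeat signal also had a higher mean in PS19, at 447548 ± 47923 (SD, n = 7) where controls had 403806 ± 31118 (SD, n = 6), and its part in these differences was not tested. With samples scaled to equal total repeat signal, the log2 differences were 0.79 for MuLV-int, 1.02 for MMERGLN-int, 0.49 for RLTR6-int and 0.76 for MERV1_I-int. The median subfamily was then at 0.05. Without that scaling, the median log2 difference over the 920 subfamilies tested was 0.19. Fitted with limma on the unscaled values of these 13 animals, 3.04% of all subfamilies passed an adjusted p of 0.05 as higher. The members were chosen on this contrast, so no calls are given for them.

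MMERGLN-int stood at 423, 282, 347, 278, 357, 420 and 281 normalized reads in PS19 replicates 1 to 7. The 6 controls stood at 165, 131.5, 272, 136, 92.2 and 150. The nearest animals of the genotypes were control replicate 3 at 272 and PS19 replicate 4 at 278, while the other 5 controls lay far lower. The log2 difference was 1.17 (SE 0.18). As a share of all repeat signal, MMERGLN-int was at 0.0761% ± 0.0106 (SD, n = 7) in PS19 and 0.0383% ± 0.0113 (SD, n = 6) in control.

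MERV1_I-int had the fewest reads of the 4 at this age and the most even values among controls. Controls stood at 51.3, 43.2, 48.3, 40.8, 47.2 and 42.3, a range of 1.26-fold. PS19 animals stood at 118, 88.8, 108, 70.1, 79.6, 69.6 and 75.7. The genotypes did not overlap, and 0.978% of all tested subfamilies had each PS19 animal above the highest control. The log2 difference was 0.90 (SE 0.18).

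MuLV-int stood at 447, 208, 506, 381, 318, 563 and 394 in PS19 and at 288, 246, 197, 179, 195 and 139 in control. PS19 replicate 2, at 208, lay among the controls, and the other 6 PS19 animals lay above the highest control. The log2 difference was 0.93 (SE 0.19). RLTR6-int was the member with the most overlap. It stood at 314, 491, 287, 299, 530, 429 and 390 in PS19 and at 372, 331, 369, 207, 135 and 175 in control. Controls 1 to 3 lay within the PS19 range and controls 4 to 6 below it, and the log2 difference was 0.63 (SE 0.21).

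PS19 replicates 1 to 5 have lower sample numbers than any control, and the meaning of these numbers is not given. Replicate 6 is numbered among the controls and replicate 7 just after them, and this pair gave log2 differences from the 6 controls of 1.22 for MuLV-int, 1.196 for MMERGLN-int, 0.73 for RLTR6-int and 0.67 for MERV1_I-int, where the median subfamily was at 0.12. These animals are part of the contrast that chose the members, so their values are a description and no separate support. Scaling within repeats by TMM took the median over all subfamilies to 0.01. With it, the members' log2 differences over all 13 animals were 0.75, 0.99, 0.45 and 0.73 in the same order.

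**Figure D1:**
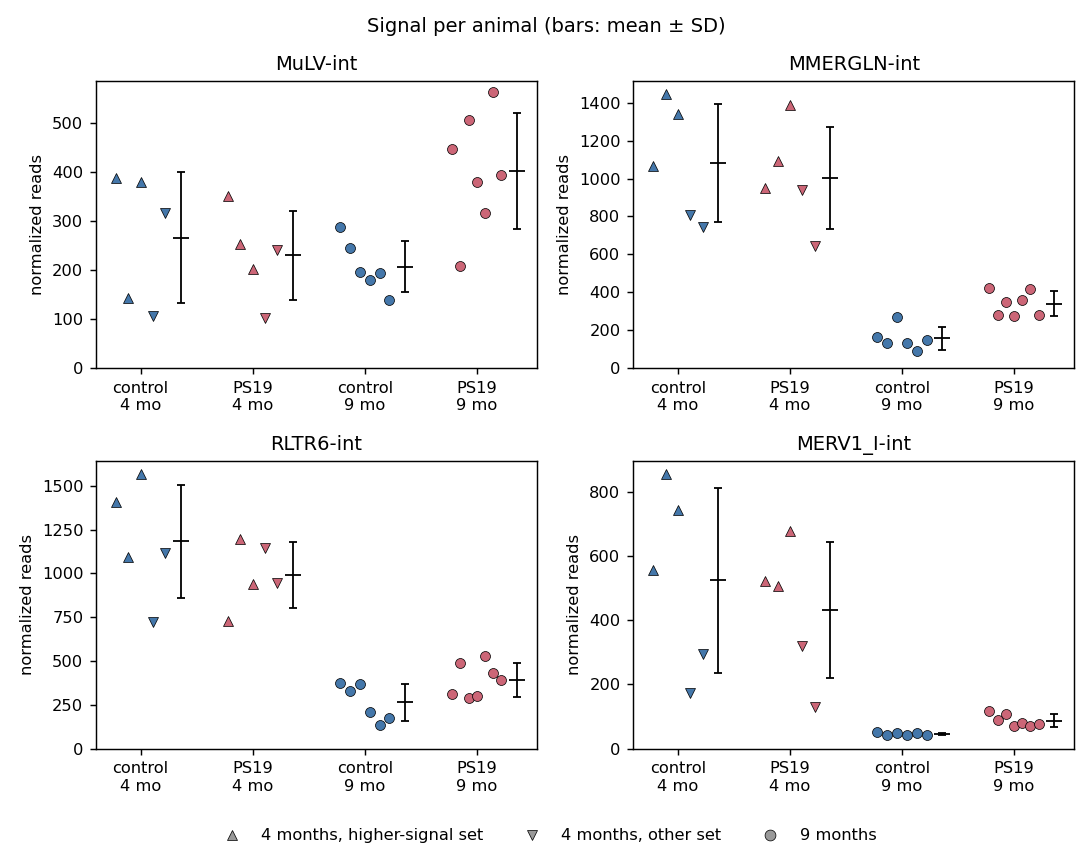
Normalized reads of each member (vertical axes, from 0) in each animal, by genotype and age. Points are animals, bars are mean ± SD, and upward and downward triangles are the 4-month animals of the higher-signal and the other set. At 9 months MMERGLN-int and MERV1_I-int do not overlap between genotypes, and at 4 months all 4 overlap. Of all tested subfamilies, 0.978% have each PS19 animal above each control at 9 months.

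The second comparison, between genotypes at 4 months, used samples that played no part in choosing the members. None of the 4 passed the test between genotypes. It was fitted with limma on the 10 animals of that age with a term for the higher-signal set, and 0 of 920 subfamilies passed (0%). An unadjusted p under 0.05 was reached by 5 (0.543%), and edgeR and DESeq2 on the recovered reads also called 0, with 4 and 3 at that level.

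MuLV-int stood at 352, 254, 202, 102 and 241 in PS19 and at 388, 143, 380, 106 and 317 in control. Both genotypes ran from about 100 to over 350, so the spread between animals of 1 genotype was far larger than the difference of means. The log2 difference was -0.13 (SE 0.33, limma adjusted p = 0.993), with a 95% interval of -0.82 to 0.55. MMERGLN-int stood at 949, 1095, 1389, 942 and 647 in PS19 and 1067, 1446, 1341, 807 and 746 in control. Within each genotype the first 3 values, those of the higher-signal set, lay above the other 2. Its log2 difference was -0.10 (SE 0.21, limma adjusted p = 0.993), with an interval of -0.53 to 0.33.

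RLTR6-int stood at 726, 1194, 942, 1145 and 944 in PS19 and 1407, 1092, 1569, 725 and 1119 in control. Its log2 difference was -0.23 (SE 0.23, limma adjusted p = 0.993), with an interval of -0.71 to 0.25. MERV1_I-int stood at 523, 506, 680, 319 and 128 in PS19 and 558, 855, 743, 173 and 296 in control, a log2 difference of -0.26 (SE 0.26, limma adjusted p = 0.993) with an interval of -0.79 to 0.28. Each interval includes 0. The difference between the effects at the 2 ages was not tested, because the 9-month effect chose the members.

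**Figure D2:**
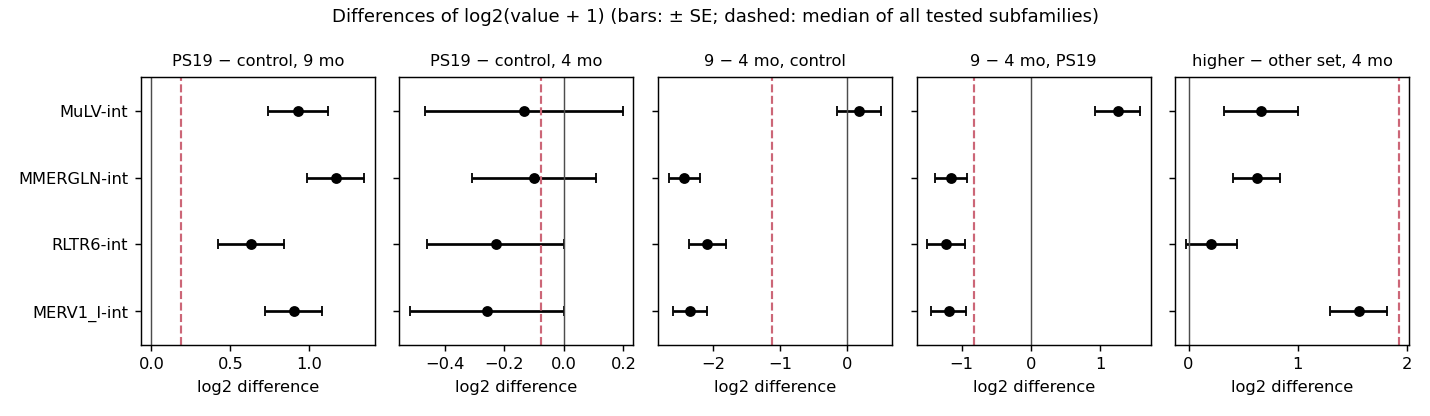
Differences of log2(value + 1) for each member in 5 contrasts, with ± SE. The dashed line is the median of all 920 tested subfamilies and the solid line is 0. The members lie right of the dashed line at 9 months and just left of it at 4 months. MuLV-int alone of the 4 lies right of 0 in the age differences of both genotypes, and in control its bar spans 0.

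The third comparison was between ages. MMERGLN-int, RLTR6-int and MERV1_I-int were lower at 9 months than at 4 months, and in normalized reads each of the 13 animals at 9 months lay below each 4-month animal. As a share of all repeat signal this separation held for MERV1_I-int, at 0.0104% to 0.0246% at 9 months and 0.0273% to 0.0458% at 4 months. It did not hold for MMERGLN-int (0.0248% to 0.0918% against 0.0588% to 0.159%) or for RLTR6-int (0.0364% to 0.126% against 0.0444% to 0.200%). The mean share of RLTR6-int at 9 months, 0.0775% ± 0.0257 (SD, n = 13), was above that of the higher-signal 4-month set, 0.0650% ± 0.0193 (SD, n = 6). MuLV-int was not lower. The fit took all 23 samples, with a term for the higher-signal set, so that the 4-month level is that of the other set. The difference was averaged over genotypes to keep it apart from the contrast that chose the members, although a high 9-month value in PS19 still enters the average. Most repeats differed between these ages, as 81.1% of subfamilies passed, 63.9% as lower at 9 months and 17.2% as higher, and the median log2 difference was -1.001. With samples scaled by TMM 324 subfamilies were lower and 287 higher, so the balance of directions rests on the scaling. Age coincides with any difference in preparation, so age and preparation cannot be told apart.

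The averaged log2 difference was -1.79 for MMERGLN-int (SE 0.19, limma adjusted p = 2.68e-10). It was -1.66 for RLTR6-int (SE 0.22, limma adjusted p = 3.44e-08) and -1.76 for MERV1_I-int (SE 0.21, limma adjusted p = 2.75e-09). Against the other 4-month set, whose level this fit takes, all 3 fell by more than the median subfamily. This ranking depends on that choice of level. In the higher-signal set the median subfamily was higher by 1.93 on the log2 scale. MMERGLN-int was higher there by only 0.62, RLTR6-int by 0.21 and MERV1_I-int by 1.56. Ranks without the set term are not given. The shares that follow are also from the fit with that term. Of all subfamilies, 10.1% fell further than MMERGLN-int, 10.8% further than MERV1_I-int and 14.9% further than RLTR6-int. With TMM scaling the median over all subfamilies was -0.23 and the 3 differences were -0.998 for MMERGLN-int, -0.86 for RLTR6-int and -0.98 for MERV1_I-int, all past the threshold. Across all tested subfamilies, 27.1% had each 9-month animal below each 4-month animal.

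MuLV-int went the other way, with an averaged log2 difference of 0.71 (SE 0.26, limma adjusted p = 0.0143), higher than in 84.7% of subfamilies. The age difference was 1.25 (SE 0.32) in PS19, whose 9-month values took part in choosing the members. In control it was 0.18 (SE 0.33). The p-value is therefore not free of that choice, and the call is also fragile. The call was lost without the set term (0.32, limma adjusted p = 0.250), without PS19 replicate 4 of the 4-month animals (0.46, adjusted p = 0.144) and without control replicate 4 (0.43, adjusted p = 0.150). Those are the animals at 102 and 106, the lowest MuLV-int values of the series. Of the 13 animals at 9 months, 6 lay above the highest animal of the other 4-month set, all of them PS19.

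By genotype, the age difference in control animals was 0.18 for MuLV-int, -2.42 for MMERGLN-int, -2.08 for RLTR6-int and -2.34 for MERV1_I-int, where the median subfamily was at -1.13. In PS19 animals it was 1.25, -1.16, -1.23 and -1.18 in the same order, with a median of -0.82. These are descriptions, as each shares its 9-month samples with the contrast that chose the members. By group mean, MuLV-int ran from PS19 at 9 months (402 ± 118, SD, n = 7) through control at 4 months (267 ± 133, SD, n = 5) and PS19 at 4 months (230 ± 90.6, SD, n = 5) to control at 9 months (207 ± 52.4, SD, n = 6). The last 3 of these differ by less than the standard deviation of the 4-month controls. The other members shared 1 order: control at 4 months, PS19 at 4 months, PS19 at 9 months and control at 9 months. In each of them the 4-month genotypes differ by less than the standard deviation of the controls, and for RLTR6-int the 9-month standard deviations overlap as well.

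The members also differed in how far they followed the 4-month sets. The median subfamily was higher in the higher-signal set by 1.93 on the log2 scale, and 91.6% of subfamilies had all 6 animals of that set above the other 4. MERV1_I-int came nearest to the median, at 1.56 (SE 0.26). MuLV-int was at 0.66 (SE 0.34), MMERGLN-int at 0.62 (SE 0.21) and RLTR6-int at 0.21 (SE 0.23). The share of subfamilies with a smaller set difference was 28.7% for MERV1_I-int, 5% for MuLV-int, 4.35% for MMERGLN-int and 0.978% for RLTR6-int. Of the 6 animals of the higher set, 3 lay above the highest of the other set for MuLV-int and for RLTR6-int, and 6 for MMERGLN-int and MERV1_I-int. The sets were recognised from total repeat signal, so this has no test.

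Shares of signal do not depend on the size factors. MERV1_I-int made up 0.0354% ± 0.0021 of all repeat signal in the higher set (SD, n = 6) and 0.0370% ± 0.0081 in the other (SD, n = 4), so it moved with the total. MMERGLN-int instead kept its share of the summed ERV1 signal. It made up 2.71% ± 0.21 of ERV1 signal in the higher set (SD, n = 6) and 2.68% ± 0.35 in the other (SD, n = 4). RLTR4_MM-int carried much of that sum, from 27.7% in control replicate 1 to 62.0% in control replicate 4 at 4 months. The set difference of RLTR4_MM-int was -0.15, where the median was 1.46 for other ERV1 internal parts and 1.71 for ERV1 LTRs. MMERGLN-int thus did not follow most ERV1 subfamilies. At 9 months the share of MMERGLN-int in ERV1 signal was 0.945% ± 0.305 in control (SD, n = 6) and 1.84% ± 0.302 in PS19 (SD, n = 7). The share of MuLV-int in ERV1 signal was 0.672% ± 0.315 over the 4-month animals (SD, n = 10), 1.27% ± 0.366 in controls at 9 months (SD, n = 6) and 2.18% ± 0.630 in PS19 at 9 months (SD, n = 7).

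**Figure D3:**
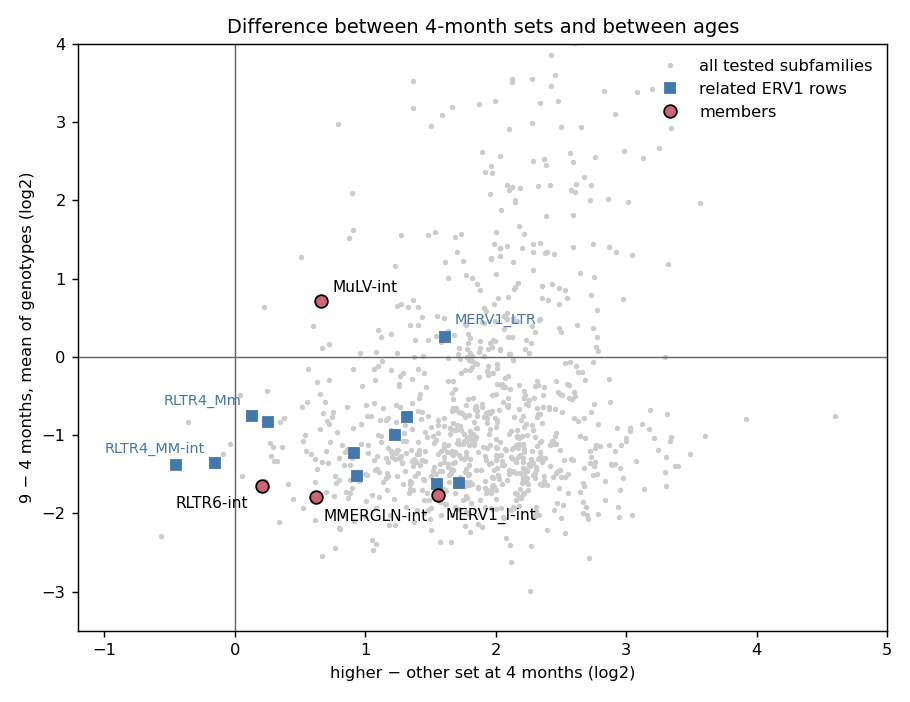
Log2 difference between the higher-signal and the other 4-month set (horizontal axis) against the log2 difference between 9 and 4 months (vertical axis) for the tested subfamilies, of which 19 lie outside the axes. Members are circles and related ERV1 subfamilies squares. MuLV-int, MMERGLN-int and RLTR6-int lie left of most subfamilies, and MuLV-int lies above 0 on the age axis.

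Related ERV1 subfamilies were read from a list of 11 names, all present and tested. It holds LTRs and internal parts tied to the members by name or known pairing: RLTR4_Mm (the LTR of MuLV-type elements) and RLTR4_MM-int, the 3 RLTR6 LTRs, MMERGLN_LTR, MERV1_LTR, RLTR1B and RLTR1B-int, MuRRS-int and MuRRS4-int. None of these passed between genotypes at 9 months, where 3.37% of all subfamilies did in either direction, and 0 passed at 4 months. Their median log2 difference at 9 months was 0.20, near the 0.19 of all subfamilies. RLTR1B had the largest log2 difference, 0.78 (limma adjusted p = 0.123), from 44.5 ± 10.8 in PS19 (SD, n = 7) against 27.1 ± 12.2 (SD, n = 6). RLTR6C_Mm was next, also at 0.61 (limma adjusted p = 0.529), followed by MMERGLN_LTR at 0.61 (limma adjusted p = 0.316) and RLTR6B_Mm at 0.50 (limma adjusted p = 0.142).

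RLTR4_MM-int is named after the same LTR as MuLV-type elements and had by far the most reads of these subfamilies. At 9 months its mean was 6680 ± 1009 in PS19 (SD, n = 7) against 6205 ± 1050 among controls (SD, n = 6), for a log2 difference of 0.11 (SE 0.11, limma adjusted p = 0.586). Its LTR partner RLTR4_Mm was at 537 ± 94.5 and 512 ± 66.6 in the same groups, a log2 difference of 0.06 (limma adjusted p = 0.824). MuLV-int thus stood higher relative to both in PS19. The ratio of MuLV-int to RLTR4_MM-int was 0.0623 ± 0.0221 in PS19 (SD, n = 7) against 0.0346 ± 0.0125 among controls (SD, n = 6). Reads can be shared between such close subfamilies, and how the counting divided them is not given.

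Between ages, 10 of the 11 related subfamilies passed as lower at 9 months and 0 as higher, with a median log2 difference of -1.23, where 63.9% of all subfamilies were lower, 17.2% higher and the median was -1.001. RLTR4_MM-int fell by 1.36 (limma adjusted p = 1.34e-09) and RLTR1B by 1.61 (limma adjusted p = 1.04e-06). MERV1_LTR, at 0.26 (limma adjusted p = 0.341), was the exception. Of the 25 other ERV1 internal parts, 15 were tested, 4 of them also on the list above. At 9 months against 4 months 12 of these 15 passed as lower and 0 as higher, with a median of -1.36, to be read against the same shares of all subfamilies. The 5 with the smallest p were RLTR4_MM-int, RodERV21-int (-1.92), MuRRS-int (-1.52), RLTR1B-int (-1.62) and MuRRS4-int (-1.23). Between genotypes at 9 months 1 of the 15 passed, MER57-int (1.53, limma adjusted p = 0.0442), where 3.04% of all subfamilies passed as higher and 0.326% as lower. MER57-int had a mean of only 23.1 normalized reads over all samples. The median of the 15 was 0.15. The 76 ERV1 subfamilies tested that are not internal parts, LTRs for the most part, include the LTRs of the list above. They had a median of 0.18 between genotypes at 9 months with 4 higher and 0 lower calls, to be read against the same 3.04% and 0.326% of all subfamilies. Between ages the median was -0.84 with 11 higher and 44 lower, near the shares over all subfamilies.

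Internal part and LTR could be set against each other within an animal, a ratio that is free of the size factor. The ratio of MERV1_I-int to MERV1_LTR separated the ages fully. It ran from 4.29 to 7.84 over the 4-month animals, with a mean of 5.90 ± 1.198 (SD, n = 10), and from 0.843 to 3 at 9 months, with a mean of 1.56 ± 0.59 (SD, n = 13). It was alike in the 4-month sets, at 5.77 ± 1.15 (SD, n = 6) and 6.11 ± 1.41 (SD, n = 4). MERV1_LTR itself was at 113 ± 20.8 in the higher set (SD, n = 6), 38.4 ± 16.2 in the other (SD, n = 4) and 44.8 ± 11.4 at 9 months (SD, n = 13). Against the other set the internal part was thus lower at 9 months, and the LTR did not pass. At 9 months the PS19 mean was 1.85 ± 0.62 (SD, n = 7) against 1.22 ± 0.34 among controls (SD, n = 6), with overlap.

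For MuLV-int against RLTR4_Mm the ratio was 0.273 ± 0.126 at 4 months (SD, n = 10). It was 0.403 ± 0.0726 in controls at 9 months (SD, n = 6) and 0.756 ± 0.231 in PS19 at 9 months (SD, n = 7), where the lowest animal was at 0.489 and the highest control at 0.508. The ratio of MMERGLN-int to MMERGLN_LTR was 12.1 ± 3.48 at 4 months (SD, n = 10), and at 9 months 7.89 ± 3.49 in control (SD, n = 6) and 11.6 ± 5.31 in PS19 (SD, n = 7). RLTR6-int to RLTR6_Mm gave 4.08 ± 1.504 at 4 months (SD, n = 10), and 2.28 ± 1.49 in control (SD, n = 6) and 2.82 ± 1.03 in PS19 (SD, n = 7) at 9 months. These last ratios overlapped widely between groups.

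**Figure D4:**
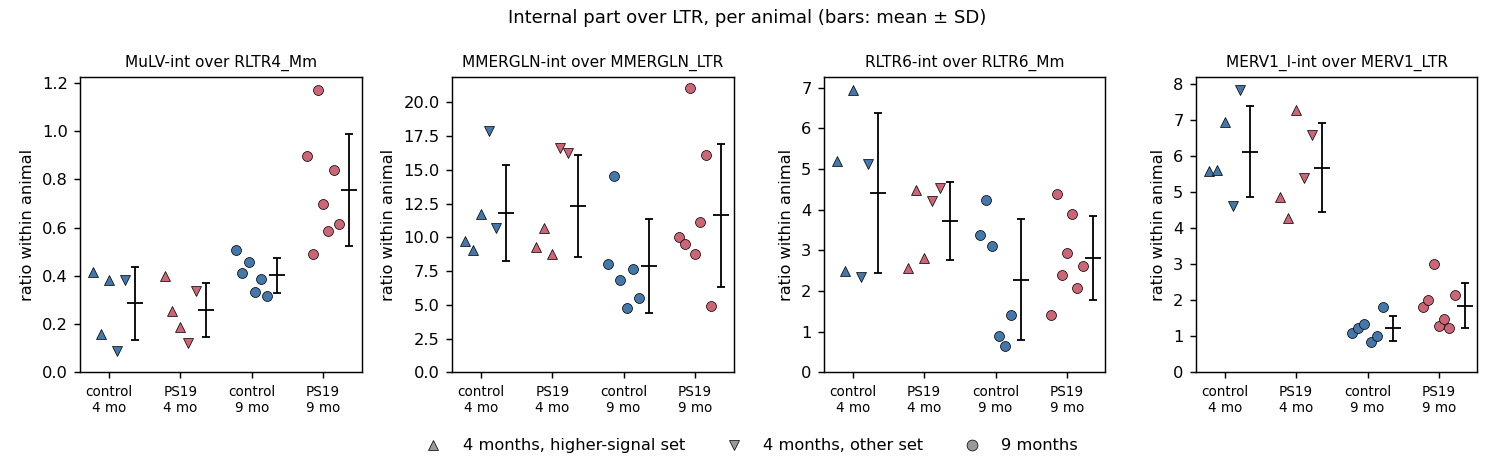
Ratio of internal part to LTR within each animal (vertical axes, from 0) for the 4 members, by genotype and age, with mean ± SD. The ratio of MERV1_I-int to MERV1_LTR is above 4 in all 4-month animals and at most 3 at 9 months.

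RLTR6C_Mm, an ERV1 LTR with few reads, divided the 4-month animals in a way that followed neither genotype nor set, and it was chosen after its values were seen. It stood at 9.68, 14.4, 17.0 and 18.5 normalized reads in 4 animals (PS19 replicates 1 and 3, control replicates 2 and 4) and at 43.9 to 57.9 in the other 6. RLTR6-int was at 725 to 1092 in those 4 animals and at 944 to 1569 in the other 6. Among the 9-month controls, the 3 animals with the least RLTR6-int (135, 175 and 207 in replicates 5, 6 and 4) had RLTR6C_Mm at 5.49, 2.01 and 9.48, while the other 3 had it at 16.1 to 36.7. In PS19 at 9 months replicates 3 and 4 had the least RLTR6C_Mm (3.14 and 7.48) and also the least RLTR6-int (287 and 299). Among the other PS19 animals the order was looser. Replicate 5, with the most RLTR6-int (530), had RLTR6C_Mm at 18.6, and replicate 6, with the most RLTR6C_Mm (54.7), had RLTR6-int at 429. Both subfamilies were read from the same libraries, RLTR6C_Mm rested on only 2 to 58 reads, and no test was made.

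**Figure D5:**
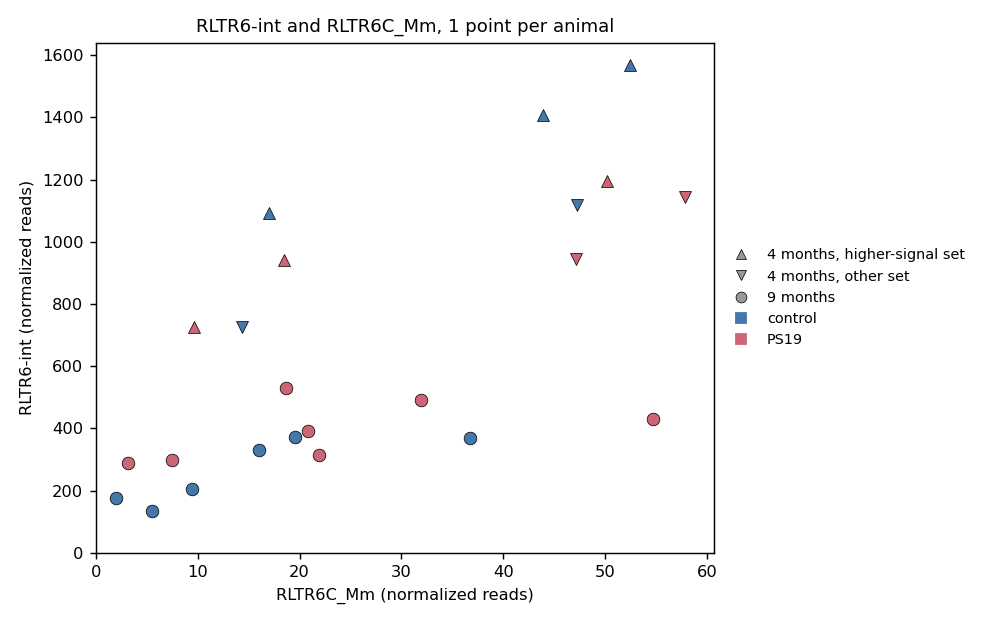
RLTR6-int (vertical axis) against RLTR6C_Mm (horizontal axis), both in normalized reads, with 1 point per animal. Shapes mark age and 4-month set and colours the genotype. At 4 months 4 animals lie below 20 on the horizontal axis and the other 6 above 40.

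Profiles over the 23 samples were compared by the root mean square difference of log2 values, each centred on its own mean. MERV1_I-int was most like MTC-int (0.30), L1_Mm (0.30) and MERVL-int (0.31), where the median subfamily was at 0.76. MMERGLN-int was most like RLTR13C1 (0.34), RLTR45 (0.35) and ORR1A4-int (0.35), with a median of 0.82. RLTR6-int was most like MMERVK9E_I-int (0.38), MTA_Mm-int (0.42) and ORR1A0-int (0.42), with a median of 0.90. The nearest subfamilies to MuLV-int, Helitron3Na_Mam (0.71), MT2B (0.71) and L1ME4a (0.72), were no closer than its own spread about its mean, 0.67, so no subfamily followed it well. Among the members, MMERGLN-int and RLTR6-int were closest (0.48) and MuLV-int and MERV1_I-int farthest apart (1.64). How much of this likeness comes from the age and set differences was not measured.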

How the data were processed

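The deposited signal is reads per repeat subfamily divided by a size factor per sample, 1 column per animal. Trimmomatic, STAR and DESeq2, with the mm10 build, appear without versions in the submitters' processing notes. The repeat counter, the repeat annotation and the treatment of multi-mapping reads were not given in the sources used here. Members and lists were chosen with earlier results of these data known, as was the division of the 4-month samples by sample number (up to 260, or above).

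Reads were recovered because each column held multiples of what 1 read is worth. Of all values, 100 percent came out whole, with a tolerance of 0.1 percent of a read. Here log2(value + 1) was fitted with limma 3.58.1 (R 4.3.3, mean-variance trend) for subfamilies with a mean of at least 10, 920 of 1135. P-values were adjusted over these by Benjamini-Hochberg, threshold 0.05. Fold changes on this scale understate changes of low subfamilies. The fits were tested on simulated reads. Alternatives were a pseudocount of 0.5 or 5, a filter at 50 or none, TMM and total scaling, tests of the recovered reads with DESeq2 1.42.0 and edgeR 4.0.16, other sample sets, and leaving out each sample. The text names the members, the 11 listed relatives, the 3 nearest profiles per member, and up to 5 other ERV1 internal parts past the threshold per direction. All 23 columns matched a sample title.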

Additional observations from a re-analysis of the deposited data

How the results depend on the processing

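No paired analysis was made, because each sample is a separate animal of 1 genotype and 1 age and the sample labels used here give no pairing of animals. At 4 months no member passed under any alternative, and leaving out each animal gave log2 differences of -0.40 to 0.12 for MuLV-int, -0.20 to -0.02 for MMERGLN-int, -0.39 to -0.09 for RLTR6-int and -0.47 to -0.07 for MERV1_I-int. The higher-signal set alone gave 1 call of 920 at that age and the other settings 0. At 9 months 31 subfamilies passed (28 higher, 3 lower). TMM scaling gave 13 (7 higher, 6 lower), scaling to equal totals 23 (12 higher, 11 lower), all 23 samples together and without the set term 1, and PS19 replicates 6 and 7 alone 6, while leaving out each animal gave 7 (without control replicate 4) to 78 (without control replicate 3). The members' 9-month differences stayed positive, at 0.82 to 1.08 for MuLV-int, 1.03 to 1.34 for MMERGLN-int, 0.46 to 0.75 for RLTR6-int and 0.82 to 0.95 for MERV1_I-int with each animal left out. Between ages 746 passed (158 higher, 588 lower), against 287 higher and 324 lower with TMM, 241 and 461 with equal totals, and 69 and 750 without the set term. MuLV-int lost its call there without the set term (0.32) and ran from 0.43 to 1.03 with each animal left out. The other 3 kept their call and direction under each alternative run. MERV1_I-int moved to -2.70 without the set term, MuLV-int to 1.51 with TMM and to 1.19 with equal totals. The depth of the 9-month samples limits MERV1_I-int most.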

Other observations

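Of 16 sets of values (4 members in 4 groups), none had an animal far from the rest by Dixon's criterion.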
